A study of Mus musculus with 10 samples.

Results

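The genes described here encode the proteins of the mitochondrial ribosome, measured by RNA sequencing in heart muscle cells (cardiomyocytes) of adult mice. They were chosen by name from the table of raw read counts: every row whose symbol starts with Mrpl (large subunit) or Mrps (small subunit) followed by a number, with 10 or more counts in at least 5 of the 10 libraries. By name there were 80 such rows, and 77 of the 38355 rows of the table were kept. All 77 were among the 12629 genes that could be tested. The cells came from biological replicates, 5 Epac1-PLN transgenic (TG) and 5 wildtype (WT) mice of the FVB/N strain. They were isolated by perfusing the heart with digestive enzymes (Langendorff isolation), and no mouse was treated; the sources used here do not give ages. The transgene is a cardiac-specific biosensor that reports cAMP by FRET, a change in energy transfer between its fluorophores. The sources used here name neither the promoter that drives it nor the number of founder lines. Males were TG replicates 1 and 5 and WT replicates 1 and 2; the other 6 mice, 3 of each genotype, were females.

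Mitochondria keep a small genome of their own, and its messenger RNAs, all for subunits of the respiratory chain and the ATP synthase, are translated inside the organelle by a dedicated ribosome. The RNAs of this ribosome are encoded in the mitochondrial genome, whereas every one of its proteins is encoded in the nucleus, made in the cytosol and imported. The large subunit forms the peptide bond and the small subunit reads the messenger. Some of the proteins have counterparts in all ribosomes, some only in bacterial ones, and some are found only in mitochondria. Heart muscle is rich in mitochondria, and inherited defects of several of these proteins cause cardiomyopathy in humans.

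By subunit, 49 of the kept genes belong to the large subunit and 26 to the small subunit. The first number includes Mrps18a and Mrps30, which carry small-subunit names but sit in the large subunit. Of these 75 proteins, 27 have counterparts in all ribosomes, 18 in bacterial ribosomes only and 30 are specific to mitochondria. The remaining kept rows are Mrps36, whose product is now known as a component of the 2-oxoglutarate dehydrogenase complex rather than a ribosomal protein, and Mrpl48-ps, a processed pseudogene of Mrpl48. The genes are spread over 17 chromosomes, with at most 10 on one of them (chromosome 11). The 3 rows that were not kept, Mrpl23-ps1, Mrps36-ps1 and Mrps36-ps2, are pseudogenes with at most 7 counts in any library. Just inside the count limit were Mrpl23, with 10 to 24 counts a library, and Mrpl53, with 14 to 22.

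Promoters were searched for short motifs of factors known to drive nuclear genes for mitochondrial proteins, and the stretches below show matches in 4 of them. Sequences came from a RefSeq table of promoter windows on build GRCm38.p6, each from 250 bases before to 50 bases after a gene's start, and 67 of the 77 genes had at least one. The printed part runs from 150 bases before to 30 bases after the start, 5′ to 3′ on the gene's own strand. Capitals mark matches on either strand to GCATGCGC (the core of the site of NRF1, nuclear respiratory factor 1), CCGGAAG (ETS factors such as GABP) or AAGATGGC (YY1). In Mrpl9 and Mrpl39 a forward and a reverse match to the NRF1 core overlap. Mrpl9 and Mrpl39 are shown because they return in the comparisons by genotype and sex. Mrps18a is shown because its printed part holds both an ETS and a YY1 match, and Mrps12 because its ETS match lies at the start itself. The window of Mrps12 also holds a YY1 match, outside the printed part. In all, 8 of the 67 genes held 2 or more of these motifs, against 274 of the 9259 genes tested that had a window.
Mrpl9 promoter, chr3:94443186-94443365, plus strand: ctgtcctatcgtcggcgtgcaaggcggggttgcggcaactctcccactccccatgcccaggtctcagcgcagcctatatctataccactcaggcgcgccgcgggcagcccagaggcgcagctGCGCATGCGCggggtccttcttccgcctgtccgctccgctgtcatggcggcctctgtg
Mrpl39 promoter, chr16:84735215-84735394, minus strand: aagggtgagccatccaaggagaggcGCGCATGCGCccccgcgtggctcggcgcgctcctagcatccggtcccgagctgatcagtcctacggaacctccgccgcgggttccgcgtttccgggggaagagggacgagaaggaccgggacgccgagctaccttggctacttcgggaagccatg
Mrps18a promoter, chr17:46110854-46111033, plus strand: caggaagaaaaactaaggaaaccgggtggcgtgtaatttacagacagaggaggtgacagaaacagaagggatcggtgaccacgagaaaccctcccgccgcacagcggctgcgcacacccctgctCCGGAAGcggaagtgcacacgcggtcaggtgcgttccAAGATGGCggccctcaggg
Mrps12 promoter, chr7:28741792-28741971, minus strand: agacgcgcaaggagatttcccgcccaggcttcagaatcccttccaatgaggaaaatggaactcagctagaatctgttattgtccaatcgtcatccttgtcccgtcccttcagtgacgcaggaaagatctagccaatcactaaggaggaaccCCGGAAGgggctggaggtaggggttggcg
An NRF1 core was found in 8 of the 67 genes (11.9%), against 6.07% of the genes tested that had a window and 3.05% of all genes in the table. The ETS motif was in 24 (35.8%), against 20% and 9.93%. The YY1 motif was in 12 (17.9%), against 5.3% and 3.19%. At least one of these 3 motifs was present in 36 of the 67 genes (53.7%), against 28.3% of the genes tested and 14.9% of all genes. TCAAGGTCA, a site of the oestrogen-related receptors, was in 0 of the 67, against 0.346% and 0.466%. The 73 windows of these 67 genes had a median GC content of 58.3%, against 61.0% and 52.7%. A match is a run of letters and not evidence of binding.

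A second set of sequences bears on what the counts of single members can mean. Mrpl23, a large-subunit protein with counterparts in all ribosomes, lies on chromosome 7 (142532799 to 142540747), and its processed copy Mrpl23-ps1 lies on chromosome 2 (74591330 to 74591917). Over the 438 bases of the coding sequence in the GRCm38 reference, the copies have 438 identical bases. The first 90 coding bases are shown for both.
Mrpl23: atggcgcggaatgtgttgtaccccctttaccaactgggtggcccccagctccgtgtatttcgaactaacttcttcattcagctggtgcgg
Mrpl23-ps1: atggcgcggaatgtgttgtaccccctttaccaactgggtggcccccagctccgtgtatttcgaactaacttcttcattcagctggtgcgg
A read from this stretch fits both places equally well. Of all windows of 50 bases in the Mrpl23 transcript, 76.36% occur also in a transcript of another gene. Mrpl23 had 1.67, 0.672, 0.707, 1.40 and 1.17 CPM in TG replicates 1 to 5, against 1.14, 1.05, 1.09, 1.295 and 1.41 CPM in WT replicates 1 to 5 (CPM are counts scaled to a common library size, here with TMM factors). Its level is therefore uncertain, and low values were shared by both genotypes.

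As a group, the genes were well expressed. On the scale of CPM per kilobase of the principal transcript, their median was 42.7, against 5.87 over all genes tested with a transcript length. The scale divides the counts of a whole gene by the length of 1 transcript, so ranks between genes can change with that choice. The quartiles were 21.7 and 75.2 CPM per kilobase. The large subunit had a median of 45.5 and the small subunit of 27.6 CPM per kilobase. Together the 77 rows took between 0.4995 and 0.5921% of the counts of a library.

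By principal transcript length, the highest level belonged to Mrpl42, a mitochondria-specific protein of the large subunit (chromosome 10, 95480806 to 95501927). It stood at 445 ± 13.1 CPM per kilobase in TG and 433 ± 33.6 in WT (SD, n = 5 each). Next came Mrpl30, a large-subunit protein with counterparts in all ribosomes, at 192 ± 12.2 in TG and 194 ± 16.3 CPM per kilobase in WT. Mrpl12, the stalk protein that contacts translation factors, followed at 169 ± 10.7 in TG and 163 ± 13.3 CPM per kilobase in WT. Mrps21, a small-subunit protein of the bacterial type, stood at 149.8 ± 11.7 in TG and 159.9 ± 13.9 CPM per kilobase in WT. By this length Mrpl42 lay above the others beyond their spread, whereas Mrpl12 and Mrps21 overlapped. The rank of Mrpl42 depends on the length used, as its principal transcript has 666 bases and all its annotated exons cover 3682.

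At the low end, Mrpl23 and Mrpl53 averaged 1.68 and 1.73 CPM per kilobase over the 10 libraries. Mrpl53, a mitochondria-specific protein of the large subunit, lies on chromosome 6 (83109095 to 83109939), where the annotation places Gm42688 on the same strand, and 100% of its 50-base windows occur in that other gene too. By principal transcript length, Mrpl17 at 6.93 and Mrpl19 at 7.52 CPM per kilobase were the next lowest. Both are large-subunit proteins of the bacterial type. In the deposited counts Mrpl17 spans 105806658 to 105811099 on chromosome 7, a stretch shorter than its principal transcript of 7300 bases. Its level per kilobase and its low rank depend on that length. Of the windows of Mrpl19, 40.29% are shared, chiefly with the opposite-strand gene Gcfc2. Sequence shared with other genes was common: 17 of the 76 genes with a transcript had more than 20% of their windows in common with another gene, and 28 had none. Exons of other genes overlapped 29 of the 76 genes that the annotation held, on the opposite strand for 26 of them. Mrpl33 was not in that annotation and was not checked. The sources used here do not say whether the counting used strand, so reads of these overlaps may belong to either gene.

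**Figure D1:**
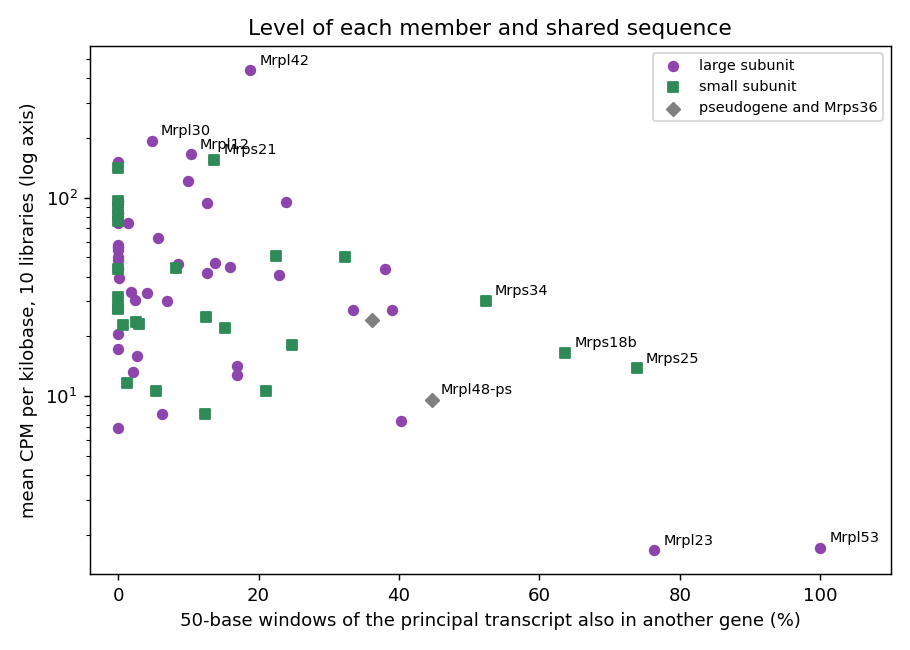
Level against shared sequence for the 76 genes with a transcript. The vertical axis is the mean CPM per kilobase over the 10 libraries (log scale), the horizontal axis the share of 50-base windows (percent) that occur in another gene's transcript, and each point is a gene. Mrpl42 is at the top at 439 CPM per kilobase; Mrpl23 and Mrpl53, with 76.36 and 100% of their windows shared, are the lowest points.

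Before the genotypes were compared, the labels were checked. Counts at Rapgef3, the gene for the cAMP-binding protein Epac1 from which the sensor takes its name, came to 1241 to 1741 CPM in TG and 10.4 to 15.9 CPM in WT libraries. Library totals ran from 10632224 to 15959196 counts in TG and from 13266303 to 20983754 counts in WT. Summed markers of cardiomyocytes spanned 102800 to 114400 CPM in TG and 102400 to 115400 CPM in WT, with 8 of 8 markers in the table. Endothelial markers summed to 425 to 859 CPM in TG and 423 to 708 CPM in WT, fibroblast markers to 255 to 447 CPM in TG and 233 to 468 CPM in WT, macrophage and leukocyte markers to 32.5 to 73.1 CPM in TG and 27.9 to 56.1 CPM in WT, smooth muscle and pericyte markers to 440.4 to 882 CPM in TG and 294 to 755 CPM in WT, and erythroid markers to 6.19 to 44.7 CPM in TG and 5.37 to 44.4 CPM in WT. No marker was called with genotype, and of those in the table only Hba-a2, an erythroid marker, was at 0 in every library. The table held 0 rows of the mitochondrial genome, so the ribosome's RNAs and the messengers it translates are not analysed here. In bulk RNA such as this, fewer cells of a type and less RNA per cell cannot be told apart.

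The main question of the design is which genes differ between TG and WT cardiomyocytes. None of the 77 genes was called with genotype. By edgeR's quasi-likelihood test 0 passed an adjusted p of 0.05, where 81 of the 12629 genes tested (0.641%) did. DESeq2 and limma-voom called 0 of the 77 as well. At an unadjusted p under 0.05 stood 1 of the 77 by edgeR, against 12.2% of all genes tested, and 2 by each of the other tools. The log2 fold changes of TG over WT were small, from -0.17 to 0.19, with a median of -0.01 against 0.00 over all genes tested. They were negative for 41 of the 77, or 53.2%, against 49% of all genes. The median size of the change was 0.04 on the log2 scale for these genes and 0.10 over all genes tested. Not one of the 77 separated the genotypes without overlap, whereas 1.24% of all genes lay wholly lower and 1.5% wholly higher in TG.

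These estimates were narrow for most members. The standard error of the log2 fold change ranged from 0.06 to 0.28, with a median of 0.07 against 0.11 over all genes tested. The 95% interval of the TG-over-WT ratio lay within a factor of 1.2 either way for 60 of the 77 genes, within 1.3 for 72 and within 1.5 for 75. The genes outside the factor of 1.3 were Mrpl23, Mrpl48-ps, Mrpl53, Mrps18b and Mrps34. By comparison, the smallest log2 fold change in size of any called gene was 0.30. A p above the threshold does not show that a gene was equal in both genotypes.

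**Figure D2:**
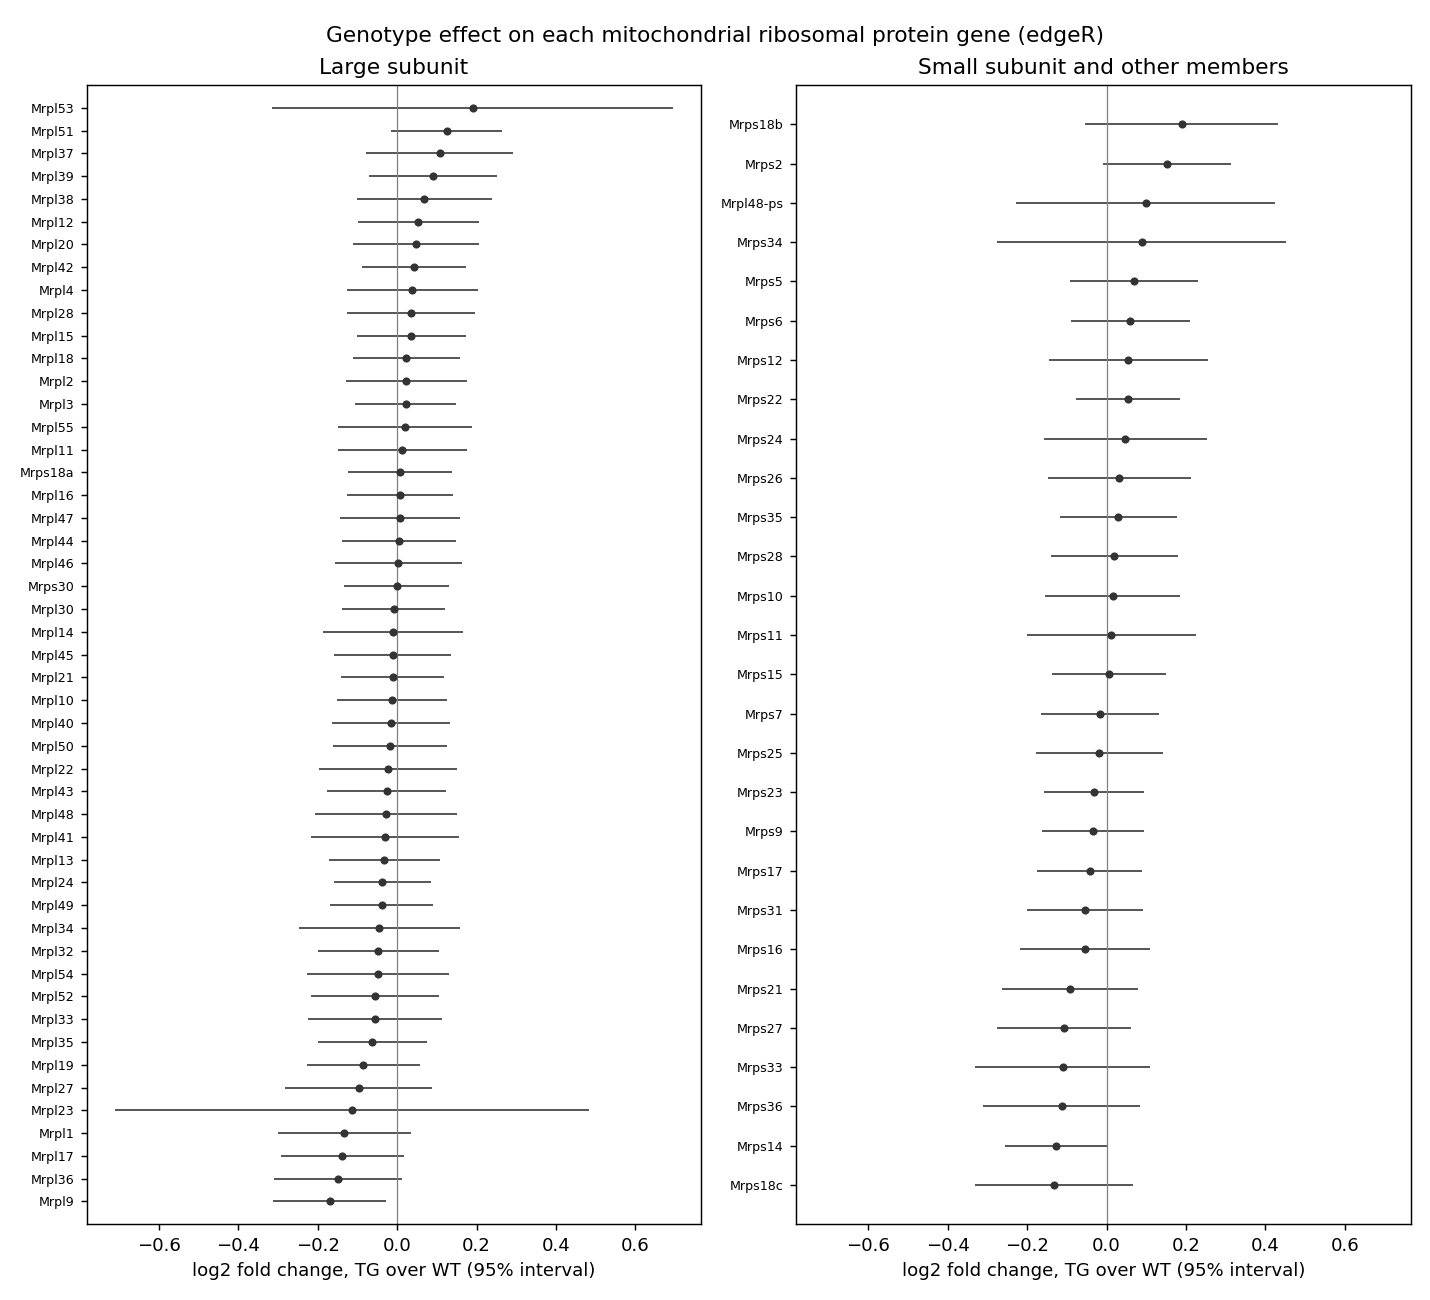
Genotype effect of each of the 77 genes. The horizontal axis is the log2 fold change of TG over WT with its 95% interval, genes run down the page by subunit, and the line at 0 marks equal levels. All estimates lie between -0.17 and 0.19, and the widest intervals belong to Mrpl23 and Mrpl53.

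The one gene at an unadjusted p under 0.05 was Mrpl9, a large-subunit protein whose bacterial counterpart reaches out from the base of the L1 stalk (chromosome 3, 94443318 to 94451130). It had 75.02, 71.7, 70.5, 62.2 and 70.3 CPM in TG replicates 1 to 5, against 88.3, 80.1, 75.5, 71.6 and 78.4 CPM in WT replicates 1 to 5. The WT libraries were mostly the higher ones, but the groups overlapped, with WT replicate 4 below TG replicates 1 and 2. The log2 fold change was -0.17 ± 0.06 (SE), with a 95% interval of -0.31 to -0.03 and an unadjusted p of 0.0221; the adjusted p was 0.302 by edgeR. Over all 21 alternative settings the estimate stayed negative, and the adjusted p ranged from 0.209 to 0.795. The opposite-strand gene Oaz3 overlaps Mrpl9, and 8.57% of the Mrpl9 windows were shared.

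The other genes with the smallest p among those with a negative estimate were Mrps14, Mrpl36, Mrpl17, Mrpl1 and Mrps18c. Mrps14, a protein of the head of the small subunit, had 66.5, 69.6, 66.9, 65.1 and 69.0 CPM in TG and 78.0, 79.7, 68.7, 69.2 and 73.4 CPM in WT. Its TG libraries were tightly grouped at 67.4 ± 1.87 CPM, and the lower WT libraries, replicates 3 and 4, fell among them (WT 73.8 ± 5.00 CPM; SD, n = 5 each). The estimate was -0.13 ± 0.06 (SE) on the log2 scale (adjusted p = 0.411 by edgeR). Mrpl36, a small protein of the bacterial type in the large subunit, averaged 42.4 ± 2.41 CPM in TG and 46.9 ± 3.97 CPM in WT (log2 fold change -0.15, adjusted p = 0.453 by edgeR). Mrpl17 averaged 48.1 ± 3.25 CPM in TG and 53.0 ± 3.55 CPM in WT, with a log2 fold change of -0.14. Mrpl1, which forms the mobile stalk beside the exit site of transfer RNA, averaged 58.4 ± 5.38 CPM in TG and 64.0 ± 5.50 CPM in WT, with a log2 fold change of -0.13. In each of these genes the ranges of the groups overlapped.

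Among the genes with a positive estimate, the smallest p were those of Mrps2, Mrpl51, Mrps18b, Mrpl37, Mrpl39 and Mrps5. Mrps2, which joins the head and the body of the small subunit, had 60.7, 53.3, 59.0, 63.8 and 67.8 CPM in TG and 53.4, 55.5, 60.2, 53.0 and 51.4 CPM in WT. TG replicates 2 and 3 lay inside the WT range and WT replicates 1, 2 and 3 inside the TG range. The log2 fold change was 0.15 ± 0.07 (SE), with an adjusted p of 0.435 by edgeR. Mrpl51, a mitochondria-specific protein of the large subunit, averaged 107 ± 5.62 CPM in TG and 98.3 ± 6.72 CPM in WT (log2 fold change 0.12, adjusted p = 0.473 by edgeR). Mrpl37, also mitochondria-specific, averaged 116 ± 6.46 CPM in TG and 108 ± 13.1 CPM in WT. Mrps5, a protein near the entry path of the messenger, averaged 37.3 ± 1.42 CPM in TG and 35.5 ± 3.25 CPM in WT. In Mrpl37 and Mrps5 the WT spread was more than the TG spread, with WT replicate 4 lowest in both.

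The paralogs Mrps18a, Mrps18b and Mrps18c descend from one bacterial protein, S18, and their products occupy different places in the mitochondrial ribosome. Mrps18a, in the large subunit, had 85.0, 88.7, 83.8, 87.4 and 81.7 CPM in TG and 90.5, 81.4, 86.0, 79.1 and 87.2 CPM in WT. Mrps18b, a mitochondria-specific protein of the small subunit, had 18.5, 16.9, 17.1, 24.3 and 18.5 CPM in TG and 17.6, 18.1, 16.6, 14.6 and 16.8 CPM in WT. Mrps18c, which keeps the place of the bacterial protein, had 29.3, 35.2, 30.1, 27.01 and 33.1 CPM in TG and 34.9, 41.0, 32.4, 32.9 and 29.2 CPM in WT. The log2 fold changes were 0.01 for Mrps18a, 0.19 for Mrps18b and -0.13 for Mrps18c, with adjusted p of 0.980, 0.547 and 0.630 by edgeR. The high value of Mrps18b in TG came from replicate 4, and 63.69% of its windows are shared, mainly with the opposite-strand gene Gm16279. Mrps18a stood highest of the paralogs by principal transcript length, at 96.3 CPM per kilobase over the 10 libraries. Mrps18c stood at 51.0 and Mrps18b at 16.6 CPM per kilobase. This order depends on the length used. The principal transcripts of Mrps18a and Mrps18c have 884 and 638 bases, whereas all annotated exons of these genes cover 3690 and 1076 bases.

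Mrpl3, Mrpl44 and Mrps22 are linked to cardiomyopathy in humans. Mrpl3, a core protein of the large subunit, had 183, 163, 189, 168 and 180.4 CPM in TG and 181, 173, 172, 172 and 171 CPM in WT. Mrpl44, a mitochondria-specific protein of the large subunit, had 94.4, 85.8, 82.9, 90.2 and 91.8 CPM in TG and 93.6, 85.6, 88.9, 79.7 and 95.7 CPM in WT. Mrps22, a mitochondria-specific protein of the small subunit, had 35.1, 32.8, 34.0, 32.4 and 33.2 CPM in TG and 34.3, 33.6, 32.1, 30.8 and 30.5 CPM in WT. The groups overlapped in each of these genes. Their log2 fold changes were 0.02 for Mrpl3, with a 95% interval of -0.11 to 0.15, 0.00 for Mrpl44 (-0.14 to 0.15) and 0.05 for Mrps22 (-0.08 to 0.18).

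Other members have a defined task in translation or outside it. Mrpl12, the stalk protein, which also binds the mitochondrial RNA polymerase, averaged 222 ± 14.1 CPM in TG and 214 ± 17.5 CPM in WT. Mrps12, which lies at the decoding site, had 26.9, 25.1, 29.2, 30.9 and 30.1 CPM in TG and 30.4, 23.9, 30.2, 24.7 and 27.5 CPM in WT. Mrpl45, which anchors the large subunit to the inner membrane, averaged 80.2 ± 6.16 CPM in TG and 80.8 ± 4.38 CPM in WT. The log2 fold changes were 0.05 for Mrpl12, 0.06 for Mrps12 and -0.01 for Mrpl45. Mrps36, the 2-oxoglutarate dehydrogenase component, averaged 16.3 ± 0.67 CPM in TG and 17.7 ± 1.85 CPM in WT, with a log2 fold change of -0.11. None of these was called.

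By subunit, estimates were negative for 28 of 49 large-subunit and 12 of 26 small-subunit genes. By origin they were negative for 12 of 27 genes with counterparts in all ribosomes (median 0.01), for 13 of 18 of the bacterial type (median -0.05) and for 15 of 30 mitochondria-specific ones (median 0.00). Among the 59 genes with at most 20% of their windows shared, 29 had a negative estimate and the median was 0.00. These counts describe the genes and were not tested as groups.

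**Figure D3:**
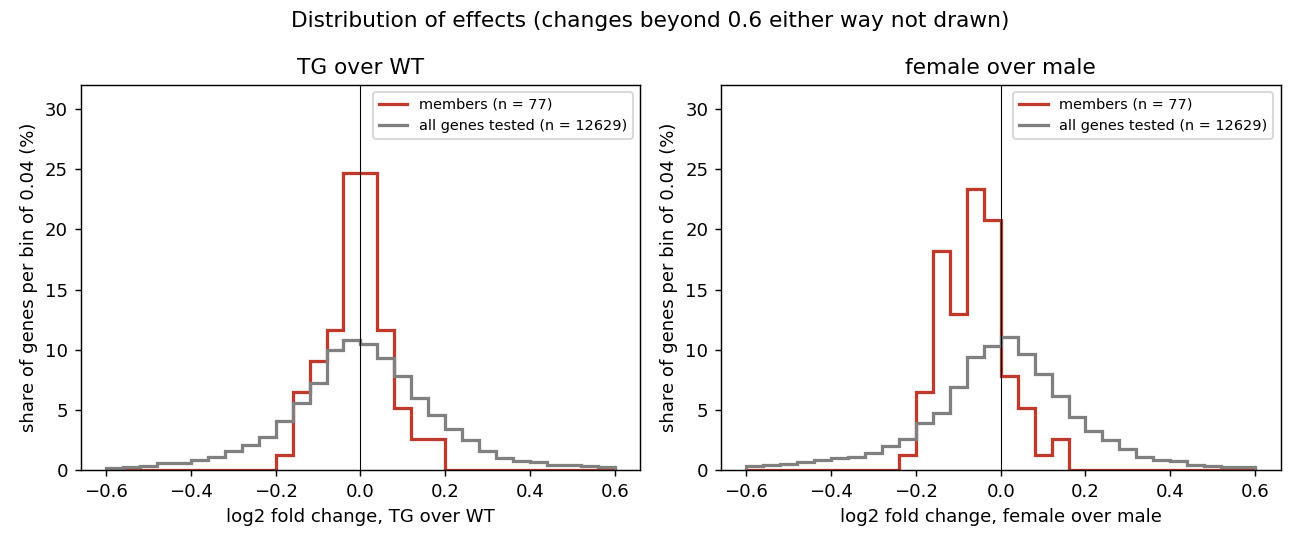
Distribution of the log2 fold changes of the 77 genes and of all 12629 genes tested, for TG over WT (left) and female over male (right). The outlines give the percent of genes in each bin of log2 fold change. The genotype effects of the 77 genes centre near 0 (median -0.01), while their sex effects lie mostly below 0 (median -0.06); changes beyond 0.6 either way are not drawn.

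In the mean over members, libraries of a genotype differed more than the genotypes did. The mean log2 CPM of the 77 genes was 5.77, 5.70, 5.75, 5.72 and 5.76 in TG replicates 1 to 5, against 5.84, 5.76, 5.75, 5.63 and 5.77 in WT replicates 1 to 5. The extremes were both WT libraries, replicate 1 the highest and replicate 4 the lowest, and the TG values lay between them. The groups averaged 5.74 ± 0.03 in TG and 5.75 ± 0.08 in WT (SD, n = 5 each), a difference of -0.01 that is smaller than the spread between libraries of a genotype.

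The pattern was shared by many members. In WT replicate 4, a female, 70 of the 77 genes were below their own mean over the 10 libraries, against 51.0% of all genes tested, and 32 of the 77 (41.6%) had their lowest value there, against 11.6% of all genes. In WT replicate 1, a male, 7 of the 77 were below their own mean and 26 (33.8%) had their highest value, against 7.64% of all genes. Among TG libraries, replicate 2 had 60 of the 77 below their mean, and the others had 27 to 45. WT replicate 1 had the most counts of all libraries, 20983754, and WT replicate 4 had 15522130; the part of depth in these values was not tested. Removing WT replicate 4 took the number of negative genotype estimates to 54 of 77, and removing TG replicate 5 took it to 33, both still with 0 genes called.

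**Figure D4:**
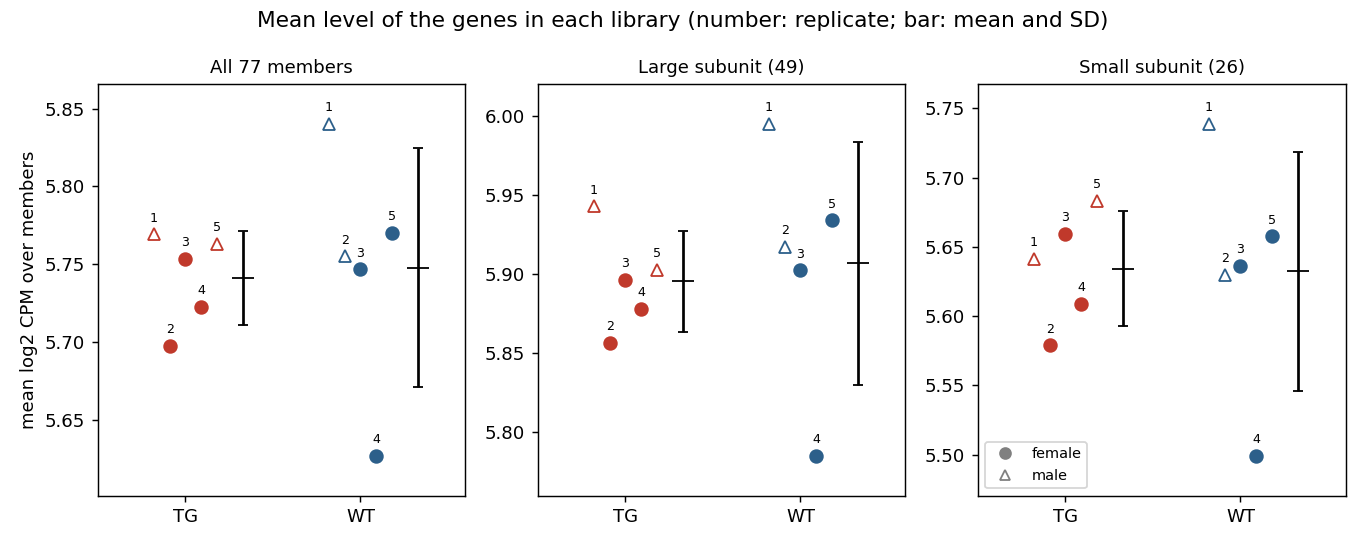
Mean log2 CPM in each library over all 77 genes (left), the 49 of the large subunit (middle) and the 26 of the small subunit (right). Circles are females and triangles males, numbered by replicate, TG left of WT, and bars give the group mean and SD. The lowest and highest libraries, 5.63 and 5.84, are both WT (replicates 4 and 1).

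**Figure D5:**
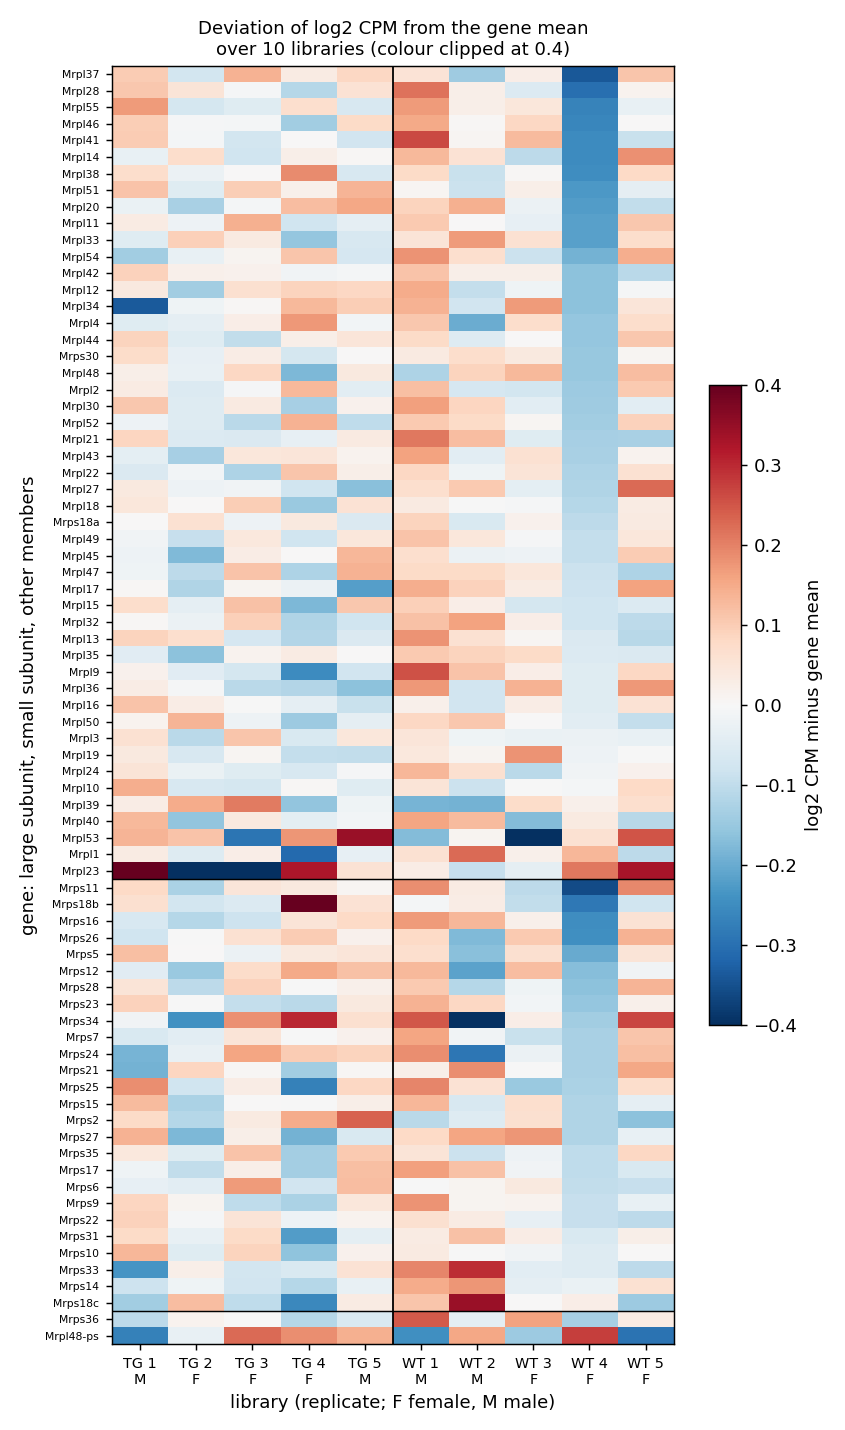
Deviation of each gene's log2 CPM from its own mean over the 10 libraries. Columns are the libraries, TG left of WT, rows are the 77 genes by subunit, and colour gives the deviation on the log2 scale. WT replicate 4 is below the mean in 70 of 77 rows and WT replicate 1 in 7.

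Sex was the other factor the labels gave. None of the 77 genes was called between females and males: 0 by edgeR's quasi-likelihood test, where 43 of the 12629 genes tested (0.34%) were. At an unadjusted p under 0.05 stood 8 of the 77, against 10.4% of all genes tested, and all 8 were lower in females, as were 4.34% of all genes. By sign, 64 of the 77 genes (83.1%) were lower in females, against 48% of all genes, with a median log2 fold change of -0.06 for females over males, against 0.01 over all genes. The mean level per library was 5.72 ± 0.05 in females (n = 6) and 5.78 ± 0.04 in males (SD, n = 4), which is about the size of the spread between libraries of a sex. The number lower in females was 54 of 77 without WT replicate 1 and 52 without WT replicate 4, the libraries at the extremes; under upper-quartile scaling or library totals alone it was 70. DESeq2 and limma-voom also called 0 genes with sex.

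The smallest p for sex was that of Mrpl21, a large-subunit protein of the bacterial type (chromosome 19, 3282901 to 3292837). It ranged from 46.5 to 49.8 CPM in the 6 females, with a median of 48.99, against 54.1 and 52.3 CPM in the TG males and 59.0 and 55.5 CPM in the WT males. All females lay below all males. This held for 2 of the 77 genes, Mrpl21 and Mrps23, and for 123 of the 12629 genes tested. Females lay wholly above males in 0 of the 77 and in 140 of all genes tested. For Mrpl21 the log2 fold change of females over males was -0.19 ± 0.06 (SE), with an unadjusted p of 0.00787; the adjusted p was 0.300 by edgeR. Mrps25, a mitochondria-specific protein of the small subunit, averaged 78.8 ± 6.75 CPM in females and 91.5 ± 4.44 CPM in males, with a log2 fold change of -0.22 and an adjusted p of 0.342 by edgeR. Of its windows 73.89% are shared, chiefly with the opposite-strand gene Nr2c2. Mrps17, a small-subunit protein with counterparts in all ribosomes, averaged 56.2 ± 2.36 CPM in females and 62.9 ± 3.35 CPM in males, with a log2 fold change of -0.16.

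In the other direction the smallest p was that of Mrpl39, a mitochondria-specific protein of the large subunit whose promoter is printed above. It ranged from 111.8 to 144 CPM in females, with a median of 131, against 127 and 123 CPM in the TG males and 109.6 and 109 CPM in the WT males. Females over males gave a log2 fold change of 0.15 ± 0.08 (SE), with an adjusted p of 0.503 by edgeR, and the sexes overlapped. Mrps26 (log2 fold change 0.07) and Mrps34 (0.13), both mitochondria-specific small-subunit proteins, followed and did not pass the test either.

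Whether the genotype effect differs between the sexes was tested with a genotype-by-sex term. It was called for 0 of the 77 genes and for 0 of all genes tested (0%) by edgeR; at an unadjusted p under 0.05 stood 0 of the 77 and 474 of all genes (3.75%). The smallest p were those of Mrpl54, Mrps33 and Mrpl32, of which Mrpl54 and Mrps33 are mitochondria-specific and Mrpl32 is of the bacterial type. In females Mrpl54 had 49.2, 50.6 and 54.2 CPM in TG and 47.3, 44.0 and 55.5 CPM in WT. In males it had 45.6 and 47.9 CPM in TG and 56.8 and 52.6 CPM in WT. The TG males thus lay below the WT males and the females overlapped, with an interaction term of 0.30 on the log2 scale and an unadjusted p of 0.08. In females alone, with 3 mice of each genotype, 28 of the 77 genotype estimates were negative and 0 genes were called.

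Other genes of mitochondrial translation were read from lists of partners, 101 of which were tested. None was called with genotype by edgeR, DESeq2 or limma-voom, and 5 stood at an unadjusted p under 0.05 by edgeR, where 12.2% of all genes tested did. Of the 101 estimates 72 (71.3%) were negative, with a median of -0.05. Beside them stood 53.2% and -0.01 for the 77 genes chosen by name, and 49% and 0.00 for all genes tested. These sets were not tested against each other. Over the 21 alternative settings between 64 and 74 partners had a negative estimate. By list, negative estimates numbered 6 of 8 in a list of mitoribosomal proteins with other symbols and the membrane insertion factor Oxa1l. They numbered 17 of 27 assembly and rRNA modification factors, 14 of 18 translation factors and 15 of 19 aminoacyl-tRNA synthetases. In the remaining lists they numbered 16 of 19 genes of mitochondrial DNA transcription and RNA stability, and 4 of 10 nuclear regulators.

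Pet112, a subunit of the amidotransferase needed to form glutamine-charged transfer RNA in mitochondria, had the smallest p of the partners. It had 69.5, 66.8, 67.2, 70.3 and 60.5 CPM in TG and 83.1, 79.8, 75.3, 73.0 and 74.7 CPM in WT, with every TG library below every WT library. On the log2 scale the change was -0.21 ± 0.06 (SE), with an adjusted p of 0.199 by edgeR. Mtrf1, a mitochondrial release factor, averaged 18.9 ± 1.31 CPM in TG and 21.7 ± 0.887 CPM in WT, also without overlap (log2 fold change -0.20, adjusted p = 0.313 by edgeR). These were 2 of the 101 partners. Of all genes tested, 1.24% lay wholly lower and 1.5% wholly higher in TG. Hars2, which charges histidine transfer RNA, had a log2 fold change of -0.16. Noa1 and Gtpbp10, GTPases of ribosome assembly, had -0.12 and -0.21. Dap3, a small-subunit protein without an Mrp symbol, had -0.08, and Oxa1l, which inserts the new proteins into the inner membrane, had 0.10. Fastkd1 and 1110008L16Rik, of the RNA stability list, had -0.16 and -0.21.

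Of the nuclear regulators, Ppargc1a encodes PGC-1α, a coactivator of mitochondrial biogenesis, and Nrf1 the factor whose core motif was searched above. Ppargc1a had 169, 203, 213, 155 and 322 CPM in TG and 122, 153, 145, 185 and 149 CPM in WT. TG replicate 5 was far above the rest and the groups overlapped. The log2 fold change was 0.49 ± 0.19 (SE), with an adjusted p of 0.339 by edgeR, and without TG replicate 5 it was 0.27. With no count filter Ppargc1a was called at an adjusted p of 7.05e-06 by edgeR, whereas in the other 20 alternative settings its adjusted p ranged from 0.144 to 0.747. Nrf1 averaged 13.0 ± 1.28 CPM in TG and 11.6 ± 1.32 CPM in WT, with a log2 fold change of 0.18 and an adjusted p of 0.504 by edgeR.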

How the data were processed

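Cardiomyocyte RNA of 5 TG and 5 WT mice was sequenced on a HiSeq2000 after TruSeq library preparation, per the labels. The authors deposited raw read counts per Ensembl gene; their normalized table was not used. STAR 2.3.0, HTSeq 0.5.4, FastQC 0.10.0, CASAVA 1.8.2, DESeq, DESeq2 and build mm10 are named in the submitters' processing notes. The sources used here do not give their settings, the annotation version or the use of strand.

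The deposited counts were tested with edgeR 4.0.16 in R 4.3.3, using TMM factors, the filterByExpr filter on genotype (12629 genes kept), a robust quasi-likelihood fit of sex and genotype, and Benjamini-Hochberg adjustment over all genes at 0.05. The sex effect came from that fit and the interaction from a fit with the product term. Standard errors came from the F statistic. Levels are TMM-scaled CPM, or log2 CPM with a prior count of 2 for means over genes. Level per kilobase used principal transcripts of GENCODE M21, which held 76 of the 77 genes, and shared sequence used windows of 50 bases. Of the 77, 48 had the same start and end there as in the deposited counts. For the rest, lengths, overlaps and shared windows describe the M21 models and may differ from those counted. Alternatives were other scalings and filters, DESeq2 1.42.0, limma-voom (limma 3.58.1), no sex term, females alone, a replicate block and each library left out; the closing section gives their effect. The fit was tested on simulated data.

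Named genes followed a rule: the 6 smallest genotype p in each direction, the 3 smallest sex p in each direction, the 3 smallest interaction p, the 4 highest and 4 lowest levels per kilobase, the Mrps18 paralogs, Mrpl3, Mrpl44, Mrps22, Mrpl12, Mrpl45, Mrps12 and Mrps36, rows at the count limit, and the 2 smallest genotype p of each partner list. This gave 34 members. One partner result is not reported here. The members and lists were chosen with earlier results of these data known. Libraries of a genotype differed by more than sampling noise (chi-square per degree of freedom of at least 7.55 over 20 pairs). Library totals were 10632224 to 20983754 counts, and intervals cover the spread between these mice.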

Additional observations from a re-analysis of the deposited data

Results flagged for a closer look

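In 70 groups of 5 libraries (the named genes and the mean level, by genotype), 4 held a library far from the others by Dixon's test, and chance alone flags about 1 in 20, or 3.5. Mrpl1 stood at 49.1 CPM in TG replicate 4, below the other TG libraries. Mrps18b stood at 24.3 CPM in the same library, above the other TG libraries. Mrpl12 was lowest among TG libraries in replicate 2, at 198 CPM. Mrpl3 was highest among WT libraries in replicate 1, at 181 CPM. TG replicate 4 was also the library with the lowest median rank correlation with the other libraries, 0.983 against 0.986 to 0.991 for the others; its part in these values was not tested.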

How the results depend on the processing

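None of the 77 genes was called with genotype, sex or their interaction in any alternative run (21 for genotype, 18 for sex); the smallest adjusted p of a member was 0.209 for genotype (Mrpl9 without TG replicate 2) and 0.129 for sex. The number of all genes called with genotype, 81, was 498 with no count filter, 41 above a mean of 5 CPM (75 members tested), 265 with DESeq2, 37 without the sex term, 4 in females alone and 14 (without WT replicate 1) to 103 (without TG replicate 2) with a library left out. With no count filter 1 partner gene, Ppargc1a, was called. The median genotype effect of the members changed sign in females alone (0.02) and ranged from -0.03 to 0.01 with a library left out. Of the 34 named members, 21 kept their sign in every alternative. In females alone the estimates of Mrpl21 (0.0575), Mrpl30 (0.0309), Mrpl32 (0.0424), Mrpl54 (0.0744), Mrps33 (0.0350) and Mrpl44 (-0.0244) turned sign. Mrpl44 did so too with upper-quartile factors (-0.0115), no filter (-0.00773) and the 5 CPM filter (-0.000985), and Mrps18a with upper-quartile factors (-0.00779) and no filter (-0.00381). With a library left out, estimates ranged from -0.0288 to 0.0173 for Mrpl21, -0.28 to 0.0226 for Mrpl23, -0.0145 to 0.0463 for Mrpl3, -0.0381 to 0.0152 for Mrpl30, -0.0279 to 0.0431 for Mrpl44, -0.0406 to 0.0266 for Mrpl45, -0.02 to 0.0404 for Mrps18a, -0.0541 to 0.0269 for Mrps25, -0.0325 to 0.0751 for Mrps26 and -0.041 to 0.233 for Mrps34. The cause was not tested.

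With the replicate number as a block, 0 members and 2 of all genes were called with genotype, and the members' median was -0.0095. Deviations from the genotype means had correlations of 0.352, -0.3, 0.14, -0.214 and 0.102 between libraries with the same number. These values had both signs and were not set against pairs of different number. They therefore cannot decide whether the numbers pair the mice.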
